A study of Homo sapiens with 6 samples.

Results

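The enzymes described here are 60 human genes that add or remove acetyl and methyl groups on histones and other proteins. They were chosen by gene symbol, as every gene whose name is KDM, KMT, HDAC, KAT, SIRT or PRMT followed by a number and at most 1 letter from A to F. These 60 are among 35974 genes with deposited values: 19 lysine demethylases (KDM), 8 lysine methyltransferases (KMT), 11 zinc-dependent deacetylases (HDAC), 8 lysine acetyltransferases (KAT), 7 sirtuins (SIRT) and 7 arginine methyltransferases (PRMT). All 60 passed the filter on low counts and were tested, KDM4E and KDM4F through the treated libraries alone. RNA was measured in SU-DHL-8, an established line of diffuse large B-cell lymphoma, labelled as wild type for DNMT1 in both groups. One group of 3 libraries was treated with the solvent DMSO, the other 3 with GSK3685032, which inhibits DNMT1, the enzyme that copies DNA methylation after replication. The sources used here state no dose or duration. For inhibitor replicates 2 and 3 the treatment label is GSK3685033 or GSK3685034, whereas the series names GSK3685032 alone, so all 3 were kept as 1 group.

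Acetyltransferases move acetyl groups from acetyl-CoA onto lysines, and HDACs and the NAD-dependent sirtuins take them off. Lysine and arginine methyltransferases use S-adenosylmethionine. Methyl groups on lysine are removed by flavin enzymes (the KDM1 pair) or by JmjC oxygenases, which need 2-oxoglutarate and iron. In germinal-centre B cells and the lymphomas derived from them, KMT2D, CREBBP and EP300 are known for recurrent loss-of-function mutations, and class I HDACs work in the co-repressor complexes recruited by BCL6. The comparison asked how the RNA of each enzyme family differed between inhibitor and DMSO.

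Libraries held 53846028 to 75304441 counts, about 13461507 to 18826110 read pairs at 4 counts per pair. DNMT1, the inhibitor's target, measured 33.0, 33.6 and 32.2 FPKM (fragments per transcript length and sequencing depth) with DMSO and 13.3, 11.8 and 13.0 with the inhibitor, a log2 change of -1.38 with an SE of 0.0529 (edgeR adjusted p = 3.695e-09). The labels do not say whether the libraries of a group are separate cultures, and p-values then reflect the spread among these libraries alone, which may be technical. All 8 B-cell markers of the list used were detected, 3 higher and 5 lower with the inhibitor, with a summed level of 870 to 887 FPKM with DMSO and 799 to 865 with the inhibitor. Of 6 T-cell and NK-cell markers, 3 were in the table used here and summed to 0.273 to 0.383 FPKM with DMSO, where CD3E and KLRD1 were at 0, and to 0.940 to 1.94 with the inhibitor, where 2 were called higher. The 5 myeloid markers summed to 0.568 to 0.798 and 0.863 to 1.08 FPKM, with ITGAM and MPO at 0 in DMSO and MPO called higher. The 6 stromal and epithelial markers summed to 0.0988 to 0.146 and 1.13 to 1.42 FPKM, with EPCAM, PDGFRA and PECAM1 at 0 in DMSO and 4 called higher. Their part in the results below was not tested.

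A gene was called higher or lower at an adjusted p of 0.05, over all 20783 genes tested by edgeR's quasi-likelihood test with Benjamini-Hochberg adjustment. With the inhibitor, 13 of the 60 enzymes were higher, 28 were lower and 19 were not called. Among all tested genes, 38.0% were called higher and 27.3% lower. Calls of at least 2-fold numbered 6 higher and 4 lower among the enzymes, against 25.2% and 7.98% of all tested genes. In FPKM, every inhibitor library lay above every DMSO library for 16 enzymes and below for 30, where the shares over all tested genes were 41.7% and 30.0%. The median log2 change was -0.14 over the enzymes and 0.14 over all tested genes.

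Most enzymes were well expressed, and genes of low level made up many of the higher calls in the table as a whole. Among genes with a mean of at least 1 FPKM over the 6 libraries, 31.5% were called higher and 41.5% lower, with a median log2 change of -0.09. The 54 enzymes at that level gave 10 higher (18.5%) and 26 lower (48.1%), with a median of -0.15. With upper-quartile scaling the median over all tested genes went from 0.14 to 0.31, and the split of the enzymes from 13 higher and 28 lower to 25 higher and 21 lower. With only genes of at least 1 FPKM in at least 3 libraries tested, it was 18 higher and 22 lower of 54, and with limma on quantile-normalized FPKM 19 higher and 28 lower. Changes near 0 therefore depend on the scaling. Of the 13 enzymes called higher, 11 were called higher in every alternative that tested them, and of the 28 called lower, 20 were called lower in every one.

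The families differed in size of output as well as in calls. The summed level of all 60 enzymes was 669 ± 3.50 FPKM with DMSO and 530 ± 4.26 with the inhibitor (SD, n = 3), a ratio of 0.793. The PRMT family held the largest sum with DMSO, 237 ± 1.43 FPKM, and measured 136 ± 1.74 with the inhibitor. Most of it was PRMT1 (106 ± 2.29 to 50.3 ± 1.92 FPKM) and PRMT5 (99.8 ± 2.59 to 58.4 ± 0.325). These genes also account for most of the fall in the sum of all 60 enzymes. KMT enzymes summed to 82.1 ± 0.827 and 63.4 ± 1.01 FPKM, and KAT enzymes to 57.4 ± 2.22 and 42.4 ± 1.25. HDAC genes summed to 105 ± 0.745 and 97.7 ± 1.41 FPKM, and sirtuins to 42.5 ± 1.004 and 39.2 ± 1.57. The demethylase sum went the other way, from 145 ± 0.956 to 152 ± 0.542 FPKM. That rise is smaller than the rise of KDM6B alone, from 7.12 ± 0.266 to 17.3 ± 0.511 FPKM, so 1 gene sets its direction. These are bulk libraries, in which fewer cells expressing a gene and less of its RNA per cell cannot be told apart.

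**Figure D1:**
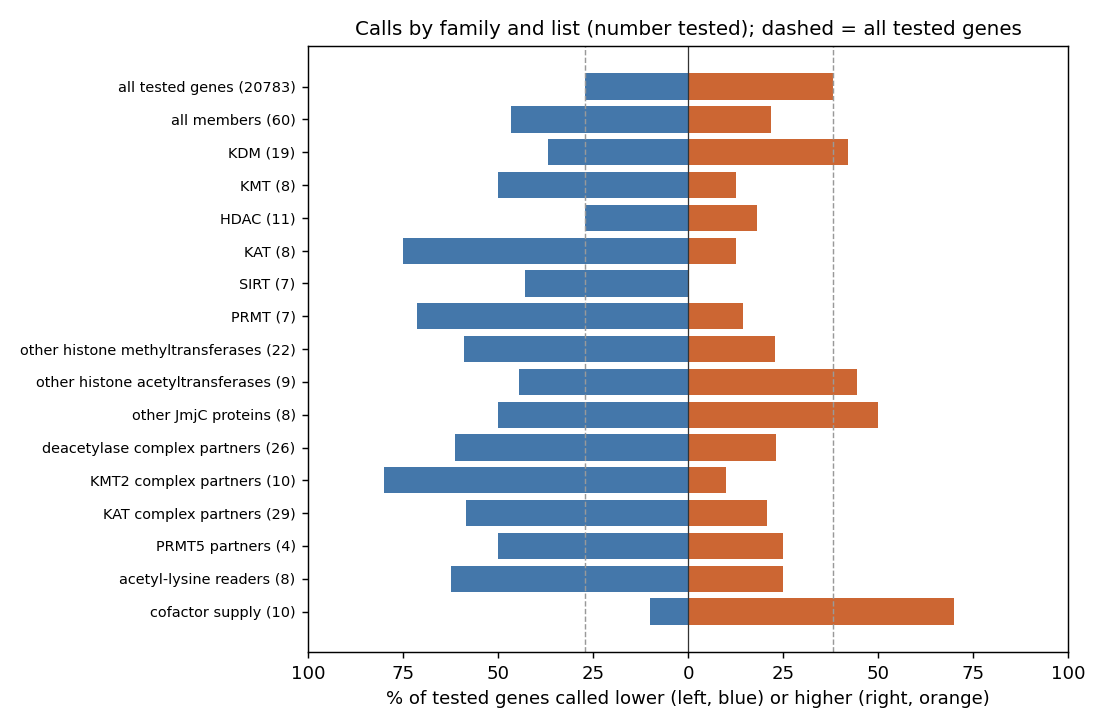
Share of tested genes called higher (to the right) or lower (to the left) with the inhibitor, in % of the number tested given in brackets, for all tested genes, all 60 enzymes, each family and the lists of partner genes. The dashed lines mark the shares of all tested genes, and the bar of the KAT family extends furthest to the left among the 6 families, with 6 of 8 members lower.

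Among the 19 demethylases, 8 were higher, 7 lower and 4 not called, with a median log2 change of 0.02. These are 42.1% higher and 36.8% lower, against 38.0% and 27.3% of all tested genes. At a mean of at least 1 FPKM, the shares over all genes were 31.5% and 41.5%. Calls of at least 2-fold higher made up 25.2% of all tested genes, and the 19 demethylases were near that share. Of the 6 enzymes called at least 2-fold higher, 5 were in this family: KDM4E, KDM5B, KDM4F, KDM6B and KDM4B. The other was HDAC11 (log2 change 2.67), with means of only 0.0141 FPKM with DMSO and 0.0912 with the inhibitor. KDM5B (ENSG00000117139, chromosome 1, 202724495 to 202808481, minus strand), which removes methyl groups from lysine 4 of histone H3, measured 0.00597, 0.00299 and 0.0110 FPKM with DMSO and 2.50, 3.35 and 2.66 with the inhibitor. It was close to silent in each control library and expressed in each treated one. The log2 change was 8.65 with an SE of 0.265 (edgeR adjusted p = 6.677e-08), and it rests on 37 counts over the DMSO libraries against 12897. Its size depends on those few counts and on the scale: it was 9.26 without DMSO replicate 3 and 8.24 without DMSO replicate 2, and 1.92 to 4.77 with limma on log2 FPKM with pseudocounts of 1 to 0.1. The gene was called higher in all 18 alternatives. The related KDM5A and KDM5C were not called, at 11.5 ± 0.173 and 11.3 ± 0.466 FPKM for KDM5A and 11.8 ± 0.658 and 12.1 ± 0.124 for KDM5C. Their log2 changes had 95% confidence intervals of -0.13 to 0.08 and -0.09 to 0.13, and the sign of each turned under at least 1 alternative.

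The sequence around the start of KDM5B is shown because the gene went from near 0 to a clear level after inhibition of a DNA methyltransferase, whose substrate is the CpG dinucleotide. It is the window from 250 bases before to 50 after the RefSeq start (GRCh38.p14, chr1:202808372-202808671, minus strand), printed 5′ to 3′ with each CpG in capitals:
KDM5B: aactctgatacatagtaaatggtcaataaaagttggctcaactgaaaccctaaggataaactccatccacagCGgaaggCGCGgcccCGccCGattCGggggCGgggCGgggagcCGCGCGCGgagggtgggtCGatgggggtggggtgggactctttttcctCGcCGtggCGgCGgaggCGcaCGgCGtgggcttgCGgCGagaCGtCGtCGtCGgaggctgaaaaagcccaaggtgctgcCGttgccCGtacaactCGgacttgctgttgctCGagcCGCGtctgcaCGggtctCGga
It holds 34 CpG in 300 bases, with a ratio of observed to expected CpG of 1.15, where the median over 35116 RefSeq windows of this length was 14 CpG and 0.579. Among the 55 enzymes with a window the median was 29 CpG and 0.861, and also 29 CpG for those called lower and those not called. DNA methylation was not measured in these libraries.

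Among all tested genes, 38.0% were called higher and 27.3% lower with the inhibitor. Of the 6 other genes within 100000 bases of KDM5B, none was called higher, 1 was lower, 2 were not called and 3 were too low to be tested. This view of neighbours, like the one for KDM4E below, was chosen after the values were seen. RABIF, a chaperone of small GTPases, measured 6.25, 6.06 and 6.67 FPKM with DMSO and 3.10, 3.31 and 3.15 with the inhibitor, a log2 change of -0.997 with an SE of 0.0911 (edgeR adjusted p = 2.332e-06). KLHL12, an adaptor of a ubiquitin ligase, was at 15.7 ± 0.524 and 15.7 ± 0.767 FPKM and was not called. The 3 untested genes had higher means with the inhibitor: PCAT6, a long noncoding RNA on the opposite strand beyond the KDM5B start, went from 0 to 0.0405 FPKM, TUBA5P from 0.00381 to 0.0315, and ENSG00000235449 from 0.139 to 0.336.

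Of the 6 KDM4 enzymes, which demethylate lysine 9 of histone H3 and, in part of the family, lysine 36, 4 were higher and 2 lower. The shares over all tested genes were 38.0% higher and 27.3% lower. KDM4E (ENSG00000235268, chromosome 11, 95025258 to 95027596, plus strand) had no counts in the 3 DMSO libraries and measured 1.39, 0.902 and 1.08 FPKM with the inhibitor. KDM4F (ENSG00000255855, chromosome 11, 95049422 to 95051338, plus strand) also had no DMSO counts and measured 0.458, 0.199 and 0.339 FPKM with the inhibitor. Against a floor of 3 read pairs over the DMSO group, KDM4E was at least 47.5-fold higher (edgeR adjusted p = 8.668e-07) and KDM4F at least 11.7-fold higher (edgeR adjusted p = 8.76e-05). With no DMSO counts, each passed the filter on low counts only through the inhibitor libraries. A lower call was thus not possible, and these p-values add no support for the direction. The sequences of both are similar: 21.8% of the 31-base words of the KDM4E transcript also occur in KDM4F, so reads may be shared between them and the level of each is uncertain. KDM4D, the third member of the cluster, lies on the same strand upstream and went the opposite way, from 0.969, 1.15 and 0.631 FPKM to 0.517, 0.511 and 0.668. One DMSO library of KDM4D lay inside the range of the inhibitor libraries, and its call (log2 change -0.70 with SE 0.268, edgeR adjusted p = 0.03807) held in 5 of the 13 alternatives that tested it.

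The start windows of KDM4D and KDM4F are shown because the genes lie in 1 cluster on the same strand and differed in direction (RefSeq, GRCh38.p14, chr11:94973459-94973758 and chr11:95049172-95049471, both plus strand, each CpG in capitals):
KDM4D: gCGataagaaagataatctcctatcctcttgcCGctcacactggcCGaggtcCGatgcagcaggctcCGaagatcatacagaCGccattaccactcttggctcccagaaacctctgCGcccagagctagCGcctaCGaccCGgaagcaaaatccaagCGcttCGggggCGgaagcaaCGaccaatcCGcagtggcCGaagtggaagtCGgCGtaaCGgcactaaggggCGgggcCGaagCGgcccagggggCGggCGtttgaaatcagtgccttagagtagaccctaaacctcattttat
KDM4F: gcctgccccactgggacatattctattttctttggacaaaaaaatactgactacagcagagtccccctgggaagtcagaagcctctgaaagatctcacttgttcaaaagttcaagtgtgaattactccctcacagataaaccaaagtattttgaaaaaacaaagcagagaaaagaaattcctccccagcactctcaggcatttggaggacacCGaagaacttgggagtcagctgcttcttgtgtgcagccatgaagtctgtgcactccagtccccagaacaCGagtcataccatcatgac
KDM4D has 24 CpG in its window and a ratio of 0.952. KDM4F has 2 CpG and a ratio of 0.132, the fewest CpG of the 55 enzymes with a window. The table of windows used here has no entry for KDM4E.

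Within 100000 bases of this cluster lie 10 other genes, of which 3 were higher, 2 lower, 1 not called and 4 too low to be tested. Such calls were common everywhere, with 38.0% of all tested genes higher and 27.3% lower. SRSF8BP, a transcribed pseudogene between KDM4E and KDM4F, had no DMSO counts and also passed the filter only through the inhibitor libraries. It measured 8.81, 5.97 and 6.87 FPKM with the inhibitor, at least 202-fold higher (edgeR adjusted p = 2.893e-08). It was the most abundant of the genes that had no DMSO counts there, and its highest library was also the highest for KDM4E and KDM4F. SRSF8, a splicing factor downstream, went from 15.8 ± 0.334 to 22.7 ± 1.01 FPKM (log2 change 0.52, edgeR adjusted p = 6.194e-06). CWC15, whose start abuts that of KDM4D on the other strand, went from 11.4 ± 1.05 to 9.76 ± 0.384 FPKM (log2 change -0.23, edgeR adjusted p = 0.0231), and ENDOD1 from 7.43 ± 0.869 to 5.43 ± 0.144 (log2 change -0.46, edgeR adjusted p = 0.0005604).

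KDM6B and KDM4B were the enzymes that rose most from an established level. KDM6B (ENSG00000132510, chromosome 17, 7834217 to 7854796, plus strand), which removes methyl groups from lysine 27 of histone H3, measured 6.94, 6.99 and 7.42 FPKM with DMSO and 17.9, 17.1 and 17.0 with the inhibitor. Every treated library was far above every control library. Its log2 change was 1.28 with an SE of 0.0520 (edgeR adjusted p = 5.398e-09), a 2.43-fold rise. KDM4B (ENSG00000127663, chromosome 19, 4969113 to 5153598, plus strand) measured 2.74, 2.84 and 3.10 FPKM with DMSO and 6.34, 6.28 and 5.82 with the inhibitor (log2 change 1.08 with SE 0.0641, edgeR adjusted p = 8.112e-08). For both genes the gap between groups was many times the spread within them.

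The start windows of these 2 genes are shown for comparison with KDM5B, since they rose from a level already clear with DMSO (RefSeq, GRCh38.p14, chr17:7833967-7834266 and chr19:4968863-4969162, both plus strand, each CpG in capitals):
KDM6B: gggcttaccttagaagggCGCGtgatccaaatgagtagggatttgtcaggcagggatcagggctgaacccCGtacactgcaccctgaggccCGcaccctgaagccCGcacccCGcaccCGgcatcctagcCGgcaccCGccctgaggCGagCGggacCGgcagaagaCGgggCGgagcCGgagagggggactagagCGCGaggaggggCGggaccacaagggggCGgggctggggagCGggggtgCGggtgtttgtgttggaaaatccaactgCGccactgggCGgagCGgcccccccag
KDM4B: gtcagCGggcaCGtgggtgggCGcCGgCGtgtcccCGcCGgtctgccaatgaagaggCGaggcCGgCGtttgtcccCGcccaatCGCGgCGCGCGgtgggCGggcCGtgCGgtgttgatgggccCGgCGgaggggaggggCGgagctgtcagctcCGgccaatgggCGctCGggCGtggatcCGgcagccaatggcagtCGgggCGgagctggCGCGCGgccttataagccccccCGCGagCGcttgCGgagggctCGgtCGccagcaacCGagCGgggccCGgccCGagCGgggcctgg
KDM6B holds 24 CpG and KDM4B 43. Both windows lie above the median of 14 over all windows, as does that of KDM5B, which was near 0 with DMSO. The median over the 55 enzymes with a window was 29.

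The other demethylases changed by less. KDM7A, which acts on lysines 9 and 27 of histone H3, measured 5.15, 5.82 and 4.63 FPKM with DMSO and 7.63, 8.48 and 8.22 with the inhibitor (log2 change 0.63 with SE 0.0783, edgeR adjusted p = 3.488e-05). Its divergent transcript KDM7A-DT was also higher, from a mean of 0.441 to 0.993 FPKM (log2 change 1.17, edgeR adjusted p = 0.00473). KDM4A was higher by 0.28 on the log2 scale (13.5 ± 0.590 to 16.4 ± 0.101 FPKM), but 45.5% of its 31-base words are shared with another annotated gene, AL451062.3. KDM3A was higher by 0.14 and was called in 16 of 18 alternatives.

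KDM1B was the most abundant demethylase with DMSO and by the mean over all libraries, though not with the inhibitor, and fell. This flavin enzyme, which acts on lysine 4 of histone H3, measured 25.4, 24.6 and 25.5 FPKM with DMSO and 15.9, 16.4 and 16.6 with the inhibitor. All treated libraries were below all controls, with a log2 change of -0.63 with an SE of 0.0409 (edgeR adjusted p = 1.575e-07). Its relative KDM1A, the CoREST subunit, went from 12.5 ± 0.179 to 11.1 ± 0.241 FPKM (log2 change -0.18, edgeR adjusted p = 0.0022), and this call was lost in 3 of 18 alternatives with a reversed sign under quantile normalization. KDM2B, the CpG-binding subunit of a variant Polycomb complex, measured 6.95, 7.12 and 7.56 FPKM with DMSO and 5.23, 5.45 and 5.40 with the inhibitor (log2 change -0.44 with SE 0.0478, edgeR adjusted p = 1.043e-05). RNF34, which overlaps KDM2B on the other strand and has 33.9% of the counts of the pair, was also lower (log2 change -0.57). KDM3B was lower by a log2 change of -0.34. KDM4C and KDM8 were lower by -0.15 and -0.34 with adjusted p-values of 0.02306 and 0.04946, and were called in 6 and 5 of 18 alternatives. KDM2A and KDM6A were not called, and the sign of each turned under some alternatives. Without DMSO replicate 1 or without DMSO replicate 2, the demethylases called lower were 4 and not 7.

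**Figure D2:**
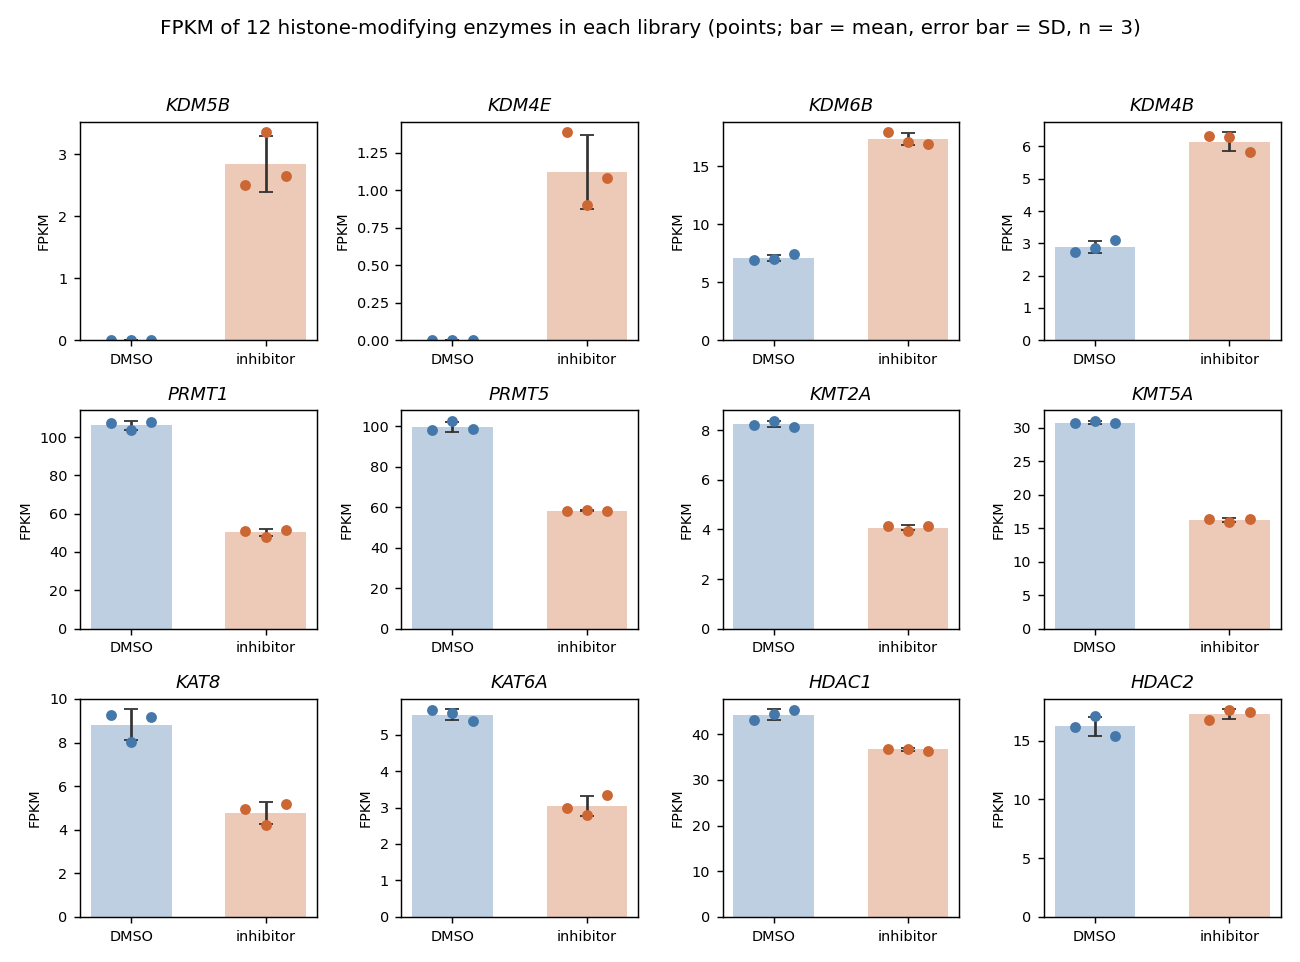
FPKM of 12 enzymes in the 3 DMSO libraries (blue points) and the 3 inhibitor libraries (orange points), with bars for the mean and error bars for the SD, each axis starting at 0. KDM5B and KDM4E lie at or near 0 in every DMSO library, KDM6B and KDM4B are higher, the 7 from PRMT1 to HDAC1 are lower with no overlap, and HDAC2 is the gene whose groups overlap.

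Among the 8 KMT enzymes, 1 was higher, 4 were lower and 3 were not called, with a median log2 change of -0.23. Thus 50% were lower, against 41.5% of genes with a mean of at least 1 FPKM and 27.3% of all tested genes. KMT2A (ENSG00000118058, chromosome 11, 118436456 to 118526832, plus strand), which methylates lysine 4 of histone H3 and is the MLL gene of acute leukaemias, measured 8.23, 8.39 and 8.14 FPKM with DMSO and 4.14, 3.94 and 4.15 with the inhibitor. Its log2 change was -1.02 with an SE of 0.0433 (edgeR adjusted p = 7.097e-09), a 2.03-fold fall with very little spread in either group. KMT2C, a methyltransferase of enhancers, measured 3.48, 3.48 and 3.35 FPKM with DMSO and 2.57, 2.45 and 2.75 with the inhibitor (log2 change -0.41 with SE 0.0492, edgeR adjusted p = 2.037e-05).

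The remaining KMT2 genes were near their control level. KMT2D, the enhancer methyltransferase often mutated in lymphoma, measured 14.6 ± 0.514 and 15.6 ± 0.285 FPKM, a log2 change of 0.09 with a 95% interval of 0.0040 to 0.18 (edgeR adjusted p = 0.06274). KMT2B was at 9.42 ± 0.301 and 9.77 ± 0.223 FPKM and was not called, with an interval of -0.06 to 0.15. KMT2E was not called, and a neighbour on the other strand, SRPK2, holds 38.8% of the counts of the pair. KMT2D was called higher in 6 of 18 alternatives and KMT2B in 3.

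The KMT5 enzymes place methyl groups on lysine 20 of histone H4, and they moved apart. KMT5A (ENSG00000183955, chromosome 12, 123384132 to 123409353, plus strand), which adds the first methyl group and is degraded during DNA replication, was the most abundant KMT. It measured 30.7, 31.05 and 30.7 FPKM with DMSO and 16.4, 15.9 and 16.4 with the inhibitor, a log2 change of -0.93 with an SE of 0.0438 (edgeR adjusted p = 1.515e-08). Its processed pseudogenes KMT5AP1 and KMT5AP2 were lower too, by -1.15 and -1.07, while KMT5AP3, at 0.169 and 0.354 FPKM, was not called (log2 change 1.03). Of the KMT5A transcript, 26.9% of the 31-base words occur in other genes, so part of those reads may be shared.

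KMT5B and KMT5C, which add the next methyl groups, are close relatives. KMT5B measured 3.24, 3.60 and 3.56 FPKM with DMSO and 4.92, 5.12 and 5.16 with the inhibitor (log2 change 0.54 with SE 0.0608, edgeR adjusted p = 1.235e-05). KMT5C measured 4.15, 3.21 and 3.20 FPKM with DMSO and 1.64, 1.97 and 1.59 with the inhibitor (log2 change -1.02 with SE 0.135, edgeR adjusted p = 4.547e-05). KMT5B was higher and KMT5C lower in every treated library, so the ratio of KMT5B to KMT5C went from 1.01 ± 0.194 to 2.95 ± 0.324.

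Of 22 histone methyltransferases with other names, 5 were higher and 13 lower, with a median log2 change of -0.52. Over all tested genes 38.0% were called higher and 27.3% lower, and at a mean of at least 1 FPKM 31.5% and 41.5%. SUV39H1, which methylates lysine 9 of histone H3, went from 14.4 ± 0.269 to 3.17 ± 0.632 FPKM (log2 change -2.19 with SE 0.118, edgeR adjusted p = 9.308e-08). NSD2, which methylates lysine 36, went from 19.0 ± 0.322 to 5.29 ± 0.582 FPKM (log2 change -1.85 with SE 0.0728, edgeR adjusted p = 1.928e-08). Both changes were larger than that of any KMT enzyme. SMYD2, which methylates histones and p53, was higher by 1.06 and EZH1, the less active Polycomb methyltransferase, by 0.44 (edgeR adjusted p = 2.097e-05). Of 10 subunits that work with KMT2 enzymes, 1 was higher and 8 were lower, with a median of -0.58. ASH2L, a core subunit, fell by 0.83 on the log2 scale (9.65 ± 0.624 to 5.45 ± 0.0980 FPKM) and PAXIP1, of the KMT2C and KMT2D complexes, by 0.76, while NCOA6 of the same complexes rose by 0.24.

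The arginine methyltransferases held the most abundant enzymes of the set, and 5 of 7 were lower, 1 was higher and 1 was not called, with a median log2 change of -0.45. Their share called lower was 71.4%, against 27.3% of all tested genes and 41.5% of those with a mean of at least 1 FPKM. PRMT1 (ENSG00000126457, chromosome 19, 49675786 to 49688447, plus strand), the main source of asymmetric dimethylarginine, measured 107, 104 and 108 FPKM with DMSO and 51.1, 48.1 and 51.6 with the inhibitor. PRMT5 (ENSG00000100462, chromosome 14, 22920525 to 22929408, minus strand), the main source of symmetric dimethylarginine, measured 98.1, 103 and 98.5 FPKM with DMSO and 58.4, 58.7 and 58.0 with the inhibitor. In neither gene did any treated library come near a control library. The log2 changes were -1.09 for PRMT1 (SE 0.0433, edgeR adjusted p = 4.746e-09) and -0.78 for PRMT5 (SE 0.0404, edgeR adjusted p = 2.931e-08).

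PRMT7, which makes monomethylarginine, measured 2.69, 2.37 and 2.53 FPKM with DMSO and 1.42, 1.30 and 1.40 with the inhibitor (log2 change -0.88 with SE 0.0766, edgeR adjusted p = 1.595e-06). PRMT3, a cytosolic enzyme that methylates a ribosomal protein, measured 11.9, 12.9 and 12.6 FPKM with DMSO and 8.74, 9.08 and 9.77 with the inhibitor (log2 change -0.45 with SE 0.0566, edgeR adjusted p = 3.16e-05). PRMT9 was lower by -0.39 (edgeR adjusted p = 0.006982), was called in 16 of 18 alternatives, and shares its locus with TMEM184C, which holds 58.8% of the counts of the pair. PRMT2 was the exception of the family, with 2.83, 2.36 and 2.88 FPKM with DMSO and 4.55, 5.04 and 4.37 with the inhibitor (log2 change 0.78 with SE 0.0908, edgeR adjusted p = 1.616e-05). PRMT6 was at 8.74 ± 0.456 and 8.02 ± 0.451 FPKM and was not called.

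The partners of PRMT5 did not move as a block. COPRS, an adaptor that brings PRMT5 to histones, went from 7.09 ± 0.972 to 3.17 ± 0.543 FPKM (log2 change -1.16 with SE 0.171, edgeR adjusted p = 0.0001056). CLNS1A, an adaptor for spliceosomal proteins, was lower by -0.13 and RIOK1, an alternative adaptor, higher by 0.13, with adjusted p-values of 0.04123 and 0.04593. The list of 4 thus gave 1 higher, 2 lower and 1 not called, beside 38.0% higher and 27.3% lower of all tested genes. At a mean of at least 1 FPKM, those shares were 31.5% and 41.5%.

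Of the 8 acetyltransferases, 6 were lower, 1 was higher and 1 was not called, with a median log2 change of -0.56, the lowest of the 6 families. This is 75% lower, where the shares were 27.3% of all tested genes and 41.5% of those with a mean of at least 1 FPKM. In the MYST group, KAT8 (ENSG00000103510, chromosome 16, 31114489 to 31131393, plus strand), which acetylates lysine 16 of histone H4, measured 9.27, 8.01 and 9.19 FPKM with DMSO and 4.96, 4.22 and 5.17 with the inhibitor. KAT6A (ENSG00000083168), a MYST enzyme for histone H3, measured 5.67, 5.59 and 5.37 FPKM with DMSO and 2.99, 2.79 and 3.34 with the inhibitor. KAT5, the catalytic subunit of the TIP60 complex, measured 10.8, 9.51 and 9.52 FPKM with DMSO and 5.79, 6.31 and 5.96 with the inhibitor. The groups were separate for all of these. The log2 changes were -0.89 for KAT8 (SE 0.0883, edgeR adjusted p = 5.845e-06), -0.87 for KAT6A (SE 0.0619, edgeR adjusted p = 3.176e-07) and -0.73 for KAT5 (SE 0.0726, edgeR adjusted p = 4.822e-06). RNASEH2C overlaps KAT5 on the other strand, with 47.3% of the counts of the pair, and was not called (log2 change 0.10).

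KAT7, the MYST enzyme of the HBO1 complex, was lower by -0.30 (7.31 ± 0.307 to 5.96 ± 0.0204 FPKM, edgeR adjusted p = 0.0002555). All 3 of its treated libraries lay below the controls. KAT6B, the close relative of KAT6A, was at 1.02 ± 0.0353 and 1.10 ± 0.0340 FPKM without passing the test (log2 change 0.11, edgeR adjusted p = 0.1414). In the GNAT group, KAT2A, the acetyltransferase of SAGA and the most abundant KAT, measured 16.2, 13.8 and 15.3 FPKM with DMSO and 12.02, 10.6 and 11.4 with the inhibitor (log2 change -0.42 with SE 0.0743, edgeR adjusted p = 0.0004134). Its paralog KAT2B measured 2.43, 2.67 and 2.37 FPKM with DMSO and 1.503, 1.37 and 1.72 with the inhibitor (log2 change -0.71 with SE 0.123, edgeR adjusted p = 0.0003612). KAT14, a subunit of the ATAC complex, was the family's higher call, from 7.17 ± 0.185 to 8.65 ± 0.360 FPKM (log2 change 0.26, edgeR adjusted p = 0.00148).

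The 29 subunits of acetyltransferase complexes gave 6 higher and 17 lower, with a median log2 change of -0.26. For comparison, 38.0% of all tested genes were higher and 27.3% lower, and 31.5% and 41.5% at a mean of at least 1 FPKM. MSL2, a subunit of one of the KAT8 complexes, went from 38.0 ± 0.806 to 11.96 ± 0.860 FPKM (log2 change -1.67 with SE 0.0535, edgeR adjusted p = 1.427e-09). SGF29, of SAGA and ATAC, fell by 0.97 on the log2 scale. MCRS1, of another KAT8 complex, rose by 0.36 and ING4, of the HBO1 complex, by 0.49 (edgeR adjusted p = 0.0002101 and 0.0001148). Of 9 acetyltransferases with other names, 4 were higher and 4 lower. EP300 rose by 0.28 (13.6 ± 0.785 to 16.6 ± 0.518 FPKM, edgeR adjusted p = 0.0003875) and the nuclear receptor coactivator NCOA1 by 0.80, while HAT1, which acetylates newly made histone H4, fell by 1.06 (12.2 ± 0.371 to 5.87 ± 0.315 FPKM, edgeR adjusted p = 3.522e-08).

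Of 11 HDAC genes, 2 were higher, 3 lower and 6 not called, with a median log2 change of -0.10. The share called lower was 27.3%, the same as over all tested genes and under the 41.5% of those with a mean of at least 1 FPKM. Upper-quartile scaling gave 5 higher and 2 lower. HDAC1 (ENSG00000116478, chromosome 1, 32292083 to 32333635, plus strand), the most abundant, measured 43.1, 44.5 and 45.4 FPKM with DMSO and 36.8, 36.9 and 36.4 with the inhibitor. Its groups were separate, with a log2 change of -0.28 with an SE of 0.0421 (edgeR adjusted p = 0.0001234). HDAC2, its partner in the same complexes, measured 16.1, 17.1 and 15.4 FPKM with DMSO and 16.8, 17.6 and 17.4 with the inhibitor, so that 1 control library lay inside the treated range. The log2 change was 0.08 with a 95% interval of -0.02 to 0.18 (edgeR adjusted p = 0.1299). It was called higher in 6 of 18 alternatives, among them upper-quartile scaling (0.26), quantile normalization (0.30), the FPKM filter (0.18) and the fit without DMSO replicate 2 (0.13, edgeR adjusted p = 0.0268).

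HDAC3, the deacetylase of the NCOR complexes, measured 9.58, 10.1 and 10.4 FPKM with DMSO and 8.94, 9.35 and 9.43 with the inhibitor (log2 change -0.13 with SE 0.0550, edgeR adjusted p = 0.06341). Without DMSO replicate 1 its change was -0.17 with an adjusted p of 0.0361, and its sign turned under upper-quartile scaling (0.05) and quantile normalization (0.03). HDAC8 measured 0.758, 0.678 and 0.786 FPKM with DMSO and 0.686, 0.713 and 0.683 with the inhibitor (log2 change -0.10 with SE 0.0888, edgeR adjusted p = 0.3536). The groups overlapped, and the sign turned under upper-quartile scaling (0.07).

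In class IIa, which holds the signal-responsive deacetylases, HDAC9 showed the largest fall of an HDAC gene. HDAC9 measured 2.24, 2.55 and 2.23 FPKM with DMSO and 1.37, 1.72 and 1.46 with the inhibitor (log2 change -0.63 with SE 0.0898, edgeR adjusted p = 8.189e-05). HDAC4 was lower by -0.30 and called in 17 of 18 alternatives, while HDAC5 was higher by 0.19 (6.88 ± 0.408 to 7.86 ± 0.0934 FPKM, edgeR adjusted p = 0.01338). G6PC3, which overlaps HDAC5 on the other strand with 34.5% of the counts of the pair, was higher too (log2 change 0.37). HDAC7 was at 10.5 ± 0.310 and 10.9 ± 0.551 FPKM and was not called. In class IIb, HDAC6 and HDAC10 were not called, and 81.4% of the 31-base words of HDAC10 are shared with its neighbour MAPK12, so its level is uncertain. HDAC11 was the lowest member of the family, at 0.0348, 0 and 0.00745 FPKM with DMSO and 0.110, 0.0697 and 0.0943 with the inhibitor. With a DMSO library at 0, it could not pass the filter on low counts through its DMSO libraries alone. Its call (edgeR adjusted p = 0.0241) rests on 15 and 89 counts and held in 8 of 12 alternatives. The HDAC genes called higher were 1 and not 2 without inhibitor replicate 1 or without inhibitor replicate 3.

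Of 26 subunits of the complexes that hold HDAC1, HDAC2 or HDAC3, 6 were higher and 16 lower, with a median log2 change of -0.23. Beside this stand 38.0% higher and 27.3% lower of all tested genes, or 31.5% and 41.5% at a mean of at least 1 FPKM. MIDEAS, the scaffold of the mitotic HDAC1 and HDAC2 complex, went from 4.76 ± 0.0311 to 2.13 ± 0.131 FPKM (log2 change -1.17 with SE 0.0609, edgeR adjusted p = 3.099e-08). RBBP7, a histone chaperone of several HDAC complexes, went from 23.8 ± 0.208 to 12.01 ± 0.687 FPKM (log2 change -0.99 with SE 0.0543, edgeR adjusted p = 4.346e-08). RCOR2, a CoREST subunit, was at 0.0211, 0 and 0.0886 FPKM with DMSO and at 1.05, 1.20 and 1.14 with the inhibitor, and so went from near 0 to a level close to that of KDM4E. SIN3B, a SIN3 scaffold, rose by 0.60 (6.33 ± 0.172 to 9.62 ± 0.304 FPKM, edgeR adjusted p = 1.1e-06).

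No sirtuin was called higher and 3 of 7 were lower, with a median log2 change of -0.16. The 42.9% called lower is near the 41.5% of all genes with a mean of at least 1 FPKM, and 27.3% of all tested genes were lower. SIRT6, a nuclear deacetylase of histone H3, measured 12.4, 10.98 and 11.3 FPKM with DMSO and 8.94, 9.29 and 8.29 with the inhibitor (log2 change -0.39 with SE 0.0765, edgeR adjusted p = 0.0008461). SIRT7, of the nucleolus, was lower by -0.24 (edgeR adjusted p = 0.008511, called in 14 of 18 alternatives). SIRT4, of the mitochondria, was at 0.511, 0.978 and 1.11 FPKM with DMSO and 0.565, 0.257 and 0.196 with the inhibitor, overlapping groups with a wide error (log2 change -1.33 with SE 0.466, edgeR adjusted p = 0.02615). This call held in 7 of 13 alternatives.

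SIRT1, the most abundant sirtuin, measured 15.3, 15.1 and 14.4 FPKM with DMSO and 17.0, 15.2 and 17.6 with the inhibitor. The second treated library lay inside the control range and the other two above it. The log2 change was 0.15 with a 95% interval of 0.01 to 0.28 (edgeR adjusted p = 0.06096), and it was called higher in 7 of 18 alternatives. These included upper-quartile scaling (0.32), quantile normalization (0.35), the FPKM filter (0.24) and the fit without inhibitor replicate 2 (0.21, edgeR adjusted p = 0.0061). SIRT2 and SIRT3 were not called, and their loci are shared with NFKBIB and RIC8A, which hold 74.7% and 88.7% of the counts of each pair. SIRT5, a mitochondrial enzyme, was at 1.29 ± 0.122 and 1.40 ± 0.194 FPKM and was not called.

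**Figure D3:**
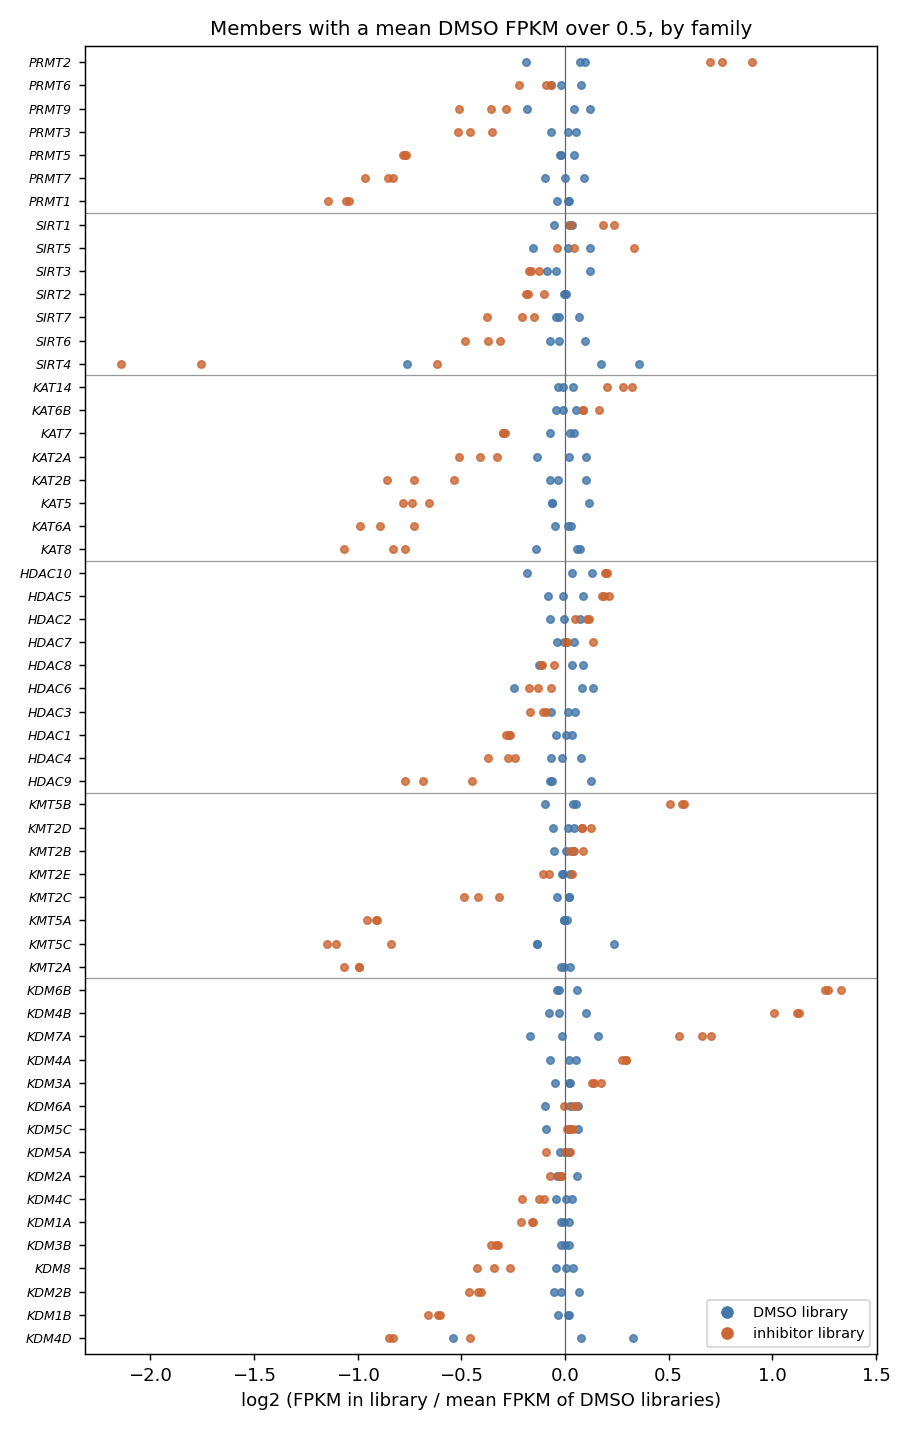
log2 ratio of the FPKM in each library to the mean FPKM of the DMSO libraries for 56 enzymes, ordered by family and by fitted change, with DMSO libraries in blue and inhibitor libraries in orange. KDM4E, KDM4F, KDM5B and HDAC11, at or near 0 with DMSO, are left out, and the widest spread within a group is that of SIRT4 and KDM4D, both low.

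Of 12 genes that supply the cofactors of these enzymes, 10 were tested, 7 were higher and 1 lower, with a median log2 change of 0.58. Beside this and the lists below, 38.0% and 27.3% of all tested genes were called higher and lower. At a mean of at least 1 FPKM, the shares were 31.5% and 41.5%. ACLY, which makes acetyl-CoA from citrate, measured 29.6, 29.1 and 30.4 FPKM with DMSO and 57.9, 58.7 and 57.9 with the inhibitor (log2 change 0.96 with SE 0.0391, edgeR adjusted p = 5.398e-09). The cytosolic IDH1, which makes 2-oxoglutarate, went from 3.78 ± 0.0730 to 6.85 ± 0.294 FPKM (log2 change 0.85, edgeR adjusted p = 1.225e-06), and the mitochondrial IDH2 from 15.8 ± 1.66 to 12.7 ± 0.195 (log2 change -0.31, edgeR adjusted p = 0.003697). Of 8 readers of acetylated lysine, 2 were higher and 5 lower: BRD3 fell by 0.31 and BRD7 by 0.29, and BPTF rose by 0.21 and BRD9 by 0.18. Of 8 JmjC proteins with other names, 4 were higher and 4 lower, among them PHF8, a demethylase of lysine 9, which rose by 0.57 (5.69 ± 0.297 to 8.51 ± 0.200 FPKM, edgeR adjusted p = 2.85e-06), and JMJD6, a lysine hydroxylase, which fell by 0.91 (14.7 ± 0.564 to 7.87 ± 0.411 FPKM, edgeR adjusted p = 1.828e-07).

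The balance between paralogs was described by the ratio of their FPKM within each library, which does not depend on scaling between libraries. Since the groups were separate in FPKM for most tested genes (41.7% above and 30.0% below), separate ratios are no trait of paralogs. KDM6A, the other demethylase of lysine 27, was not called, so its ratio to KDM6B went from 0.253 ± 0.0234 to 0.106 ± 0.00532. The ratio of KMT2A to KMT2B went from 0.877 ± 0.0417 to 0.417 ± 0.00876, and that of KAT6A to KAT6B from 5.47 ± 0.321 to 2.77 ± 0.321. KDM4A to KDM4B went from 4.65 ± 0.149 to 2.68 ± 0.111. Smaller shifts were seen for HDAC1 to HDAC2, from 2.74 ± 0.183 to 2.13 ± 0.0575, and for KDM1A to KDM1B, from 0.499 ± 0.00549 to 0.681 ± 0.0234. Of the 16 pairs examined, 3 overlapped between groups: KAT2A to KAT2B (6.10 ± 0.826 and 7.45 ± 0.732), KDM5A to KDM5C (0.969 ± 0.0445 and 0.937 ± 0.0458) and SIRT6 to SIRT7 (1.48 ± 0.0319 and 1.35 ± 0.186). The ratios are a description with no test.

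**Figure D4:**
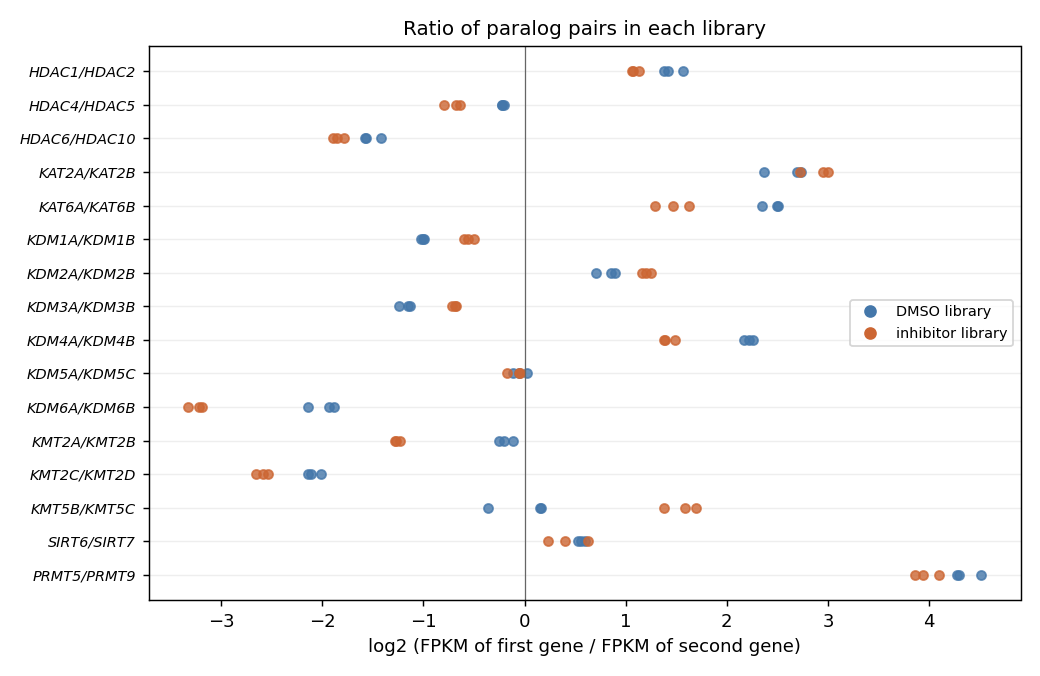
log2 of the ratio of FPKM between the 2 genes of each of 16 paralog pairs, per library, DMSO in blue and inhibitor in orange. KMT5B/KMT5C lies further right with the inhibitor, KDM6A/KDM6B, KMT2A/KMT2B and KAT6A/KAT6B lie further left, and KDM5A/KDM5C overlaps.

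**Figure D5:**
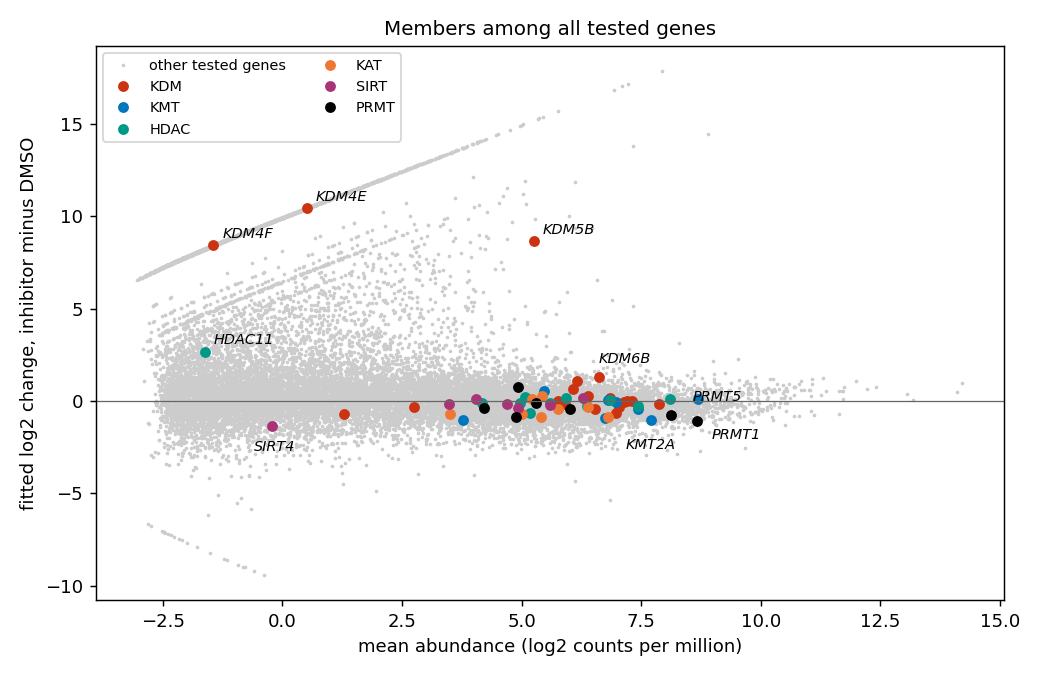
Fitted log2 change, inhibitor minus DMSO, against mean abundance in log2 CPM (counts scaled to library size), for all 20783 tested genes (grey) and the 60 enzymes coloured by family. KDM4E and KDM4F lie on the upper diagonal of genes with no DMSO counts, where the fitted value depends on the prior count, KDM5B stands at 8.65 and HDAC11 at 2.67, and the other enzymes lie closer to 0.

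The start windows of 55 enzymes matched the RefSeq table, and they were rich in CpG. The median was 29 CpG, 66.3% G and C, and a ratio of observed to expected CpG of 0.861, against 14 CpG, 58.7% and 0.579 over all 35116 windows. The 11 windows of enzymes called higher and the 25 of enzymes called lower had medians of 30 and 29 CpG. Of 3 motifs searched on both strands, the E2F words TTTCCCGC, TTTCGCGC and TTTGGCGC were found in 2 of 55 windows (3.64%), those of KDM1B and SIRT6, and in 2.74% of all windows. The NF-Y word CCAAT was found in 16 of 55 windows (29.1%) and in 34.6% of all, and the CRE word TGACGTCA in 0 of 55 and in 1.85% of all. KAT8, HDAC5, KAT6A, KDM4E and SIRT7 had no matched window.

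The deposited counts may be split or shared where genes overlap. Another gene of the table overlaps 38 of the 60 enzymes, and for 12 it holds at least 10% of the counts of the pair. The sources used here do not say whether strand was used in counting. Besides the pairs named above, these are KDM5A with CCDC77 (17.0%), HDAC7 with SLC48A1 (14.5%), and KAT8 and KDM8 with unnamed transcripts. KDM4E, KDM5B, KDM6B, KDM4B, PRMT1, PRMT5, KMT2A and KMT5B are not among the 12. Shared sequence is a separate limit. Besides the genes named above for it, over 10% of the 31-base words occur in other genes for KMT2A (21.8%), HDAC8 (20.6%), KAT14 (16.6%), KAT7 (13.1%), KAT2A (12.2%) and KMT2C (10.1%).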

How the data were processed

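RNA was measured by sequencing of poly(A)-selected, dUTP-stranded paired-end libraries, 3 per group. The values the authors deposited are, per the file headers, an estimated count and an FPKM per gene and library. The submitters' processing notes name edgeR, DESeq2, StringTie 2.1.6, HISAT2 2.2.1 and cutadapt 1.9, without roles, and the mouse build mm10; the gene IDs are human, and all 60 members were found in GENCODE release 29 and overlap their GRCh38 position on the same strand, so deposited coordinates were read as GRCh38. Counts peak at multiples of 4 (on average 1319.833 genes per library at 4, 725.833 at 3 and 474.5 at 5), so 4 counts were taken as about 1 read pair. Whole-number counts were used as deposited. No 2 libraries of a group were identical; pairs differed by 3.30 to 6.84 times the sampling variance. No per-sample column was left unused.

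The main test was edgeR 4.0.16 (R 4.3.3), quasi-likelihood, filterByExpr, TMM factors and Benjamini-Hochberg adjustment over 20783 genes, 2-sided. SE is the absolute log2 fold change over the square root of F. A gene at 0 in DMSO is given against a floor of 12 counts (3 read pairs) over the group, which covers counting error only. The script was tested on simulated counts. Alternatives were DESeq2 1.42.0, limma 3.58.1 on log2(FPKM + 0.5) and with other pseudocounts, other scalings and filters, inhibitor replicate 1 alone, a replicate block and each library left out.

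Members and lists were chosen with earlier results of these data known. Members were named with full values if among the 24 largest called changes with a mean FPKM of at least 1 and no overlap between groups, or if a class I HDAC or the most abundant of a family (29 in all); list genes by the 2 largest called changes per direction. KDM4D, KDM4F, HDAC11 and SIRT4 fall outside this rule and were given in full after their values were seen; other members are given by means and counts. Promoter windows are from RefSeq; protein sequences and a genome sequence were not used here.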

Additional observations from a re-analysis of the deposited data

How the results depend on the processing

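The 25 called enzymes among the 29 named by rule kept their direction and call in every alternative that tested them, as did KDM4F, while KDM4D held in 5 of 13, HDAC11 in 8 of 12 and SIRT4 in 7 of 13; DNMT1 ranged from -1.43 to -1.33 with 1 library left out. The median log2 change of the enzymes was -0.14 and became -0.0560 with only genes of at least 1 FPKM in 3 libraries, -0.11 with library totals only, and 0.0319, a reversed sign, with upper-quartile factors; with 1 library left out it ranged from -0.16 to -0.10, the last without DMSO replicate 3. Upper-quartile factors gave 25 enzymes higher. The FPKM filter and upper-quartile factors gave 3 demethylases lower each, inhibitor replicate 1 alone gave 4, and leaving out 1 library gave 4 to 6. KMT genes called higher numbered 3 with the FPKM filter, 2 with DESeq2, 4 with upper-quartile factors, 2 with library totals, 2 with counts divided by 4 and 3 with quantile normalization. HDAC genes called higher numbered 4 with the FPKM filter, 5 with upper-quartile factors, 4 with library totals, 4 with quantile normalization, 1 with each of the 3 limma pseudocounts, 1 with inhibitor replicate 1 alone, and 1 to 3 with 1 library left out. KAT genes called higher were 2 with the FPKM filter and with upper-quartile factors. One sirtuin was called higher with the FPKM filter, upper-quartile factors, library totals, counts divided by 4, quantile normalization and inhibitor replicate 1 alone, and 0 to 1 with 1 library left out; the sirtuins called lower were 1 with the FPKM filter and with inhibitor replicate 1 alone. HDAC3 reversed to 0.0456 (upper-quartile) and 0.0332 (quantile), and HDAC8 to 0.0732 (upper-quartile). The FPKM filter tests fewer genes, and its scaling factors were computed on those genes alone. With it HDAC1 went from -0.28 to -0.18, KMT2A from -1.02 to -0.93 and KDM6B from 1.28 to 1.37. The single library leaves fewer samples. The cause of the shifts was not tested. A replicate block gave 13 higher and 25 lower; same-numbered libraries correlated at 5e-04, 0.0211 and 0.0027, so the numbers give no sign of pairing. Depth limits KDM4D, KDM4F, HDAC11 and SIRT4, which have few counts.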
